A study of Homo sapiens with 15 samples.

Results

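The p53 target genes described here are 35 genes of the human transcriptional response to the tumour suppressor p53, matched by symbol among the 26485 gene symbols counted by mRNA sequencing. They were chosen with earlier results of these data known, so their directions are no independent evidence. Each of the 35 symbols was found once, and 34 of the genes carried enough reads to be tested among 17243 tested genes. The member without enough reads was SPATA18, a mitochondrial quality control gene, which had no count in 13 of the 15 libraries and 2 counts in each of the other two.

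Levels came from 15 libraries in 5 groups of 3, made from a pair of acute myeloid leukaemia cell lines, ML1 and U937. ML1 received 10 nM prexasertib or diluent, and U937 received 10 nM prexasertib with 350 nM LSN622666, 10 nM prexasertib alone, or diluent. All cultures were harvested at 24 h and all, diluent included, also held 5 µM Q-VD-OPh, a caspase inhibitor that blocks the execution of apoptosis. Prexasertib inhibits CHK1, a kinase that restrains replication origins and entry into mitosis, and LSN622666 is known here by its code name only. No group received LSN622666 alone, and the combination was given to U937 only. The series set out to find mRNA changes in candidate regulators of TNF transcription, and the p53 target genes are one readout of the same libraries. Each line is a single established culture line, so a difference between ML1 and U937 is a difference between those lines and cannot be told apart from anything else in which they differ.

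p53 is a transcription factor that is held at a low level by the ubiquitin ligase MDM2 and accumulates when DNA is damaged or replication fails. It binds DNA as a tetramer, usually at a pair of adjacent decamer half-sites, and switches on genes that arrest the cell cycle, repair DNA, adjust metabolism and promote cell death, MDM2 itself among them.

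Whether the 3 samples of a group came from separate cultures is not said in the labels, so p-values here reflect only how these samples varied, and that variation may be technical. Library totals ran from 49011222 to 87301014 counts, and log expression of replicates correlated between 0.982 and 0.9937. U937 prexasertib replicate 2 stood apart from its group in several members below, and without it the number of all genes called between prexasertib and diluent in U937 was 2684, against 5369 with it. Of 15 myeloid markers, all had counts in every group; among 15 markers of other cell types, the T cell genes CD3D and CD3E and the epithelial gene EPCAM had 0 counts in all libraries.

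The start sites of the members were searched for p53 half-sites, because so many of the members moved together in ML1. RefSeq windows of 300 bases, 250 before and 50 after each start, were at hand for 30 members (37 windows; GRCh38.p14). The canonical p53 decamer was searched on both strands, with overlapping matches allowed, and an exact match lay in 8 of the 37 member windows, one window each for ABHD4, AEN, DDB2, FDXR, PANK1, PLK2, RAP2B and RPS27L; 6.63% of all 35116 windows held one. A pair of exact decamers at most 13 bases apart was found in DDB2 alone among the members and in 0.0285% of all windows. A contiguous 20-base site with at most 2 departures was found for AEN, DCP1B, DDB2, GLS2 and PANK1, and in 0.649% of all windows. Such matches describe letters in a window and not binding, and many p53 sites are known to lie in introns outside these windows.

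The stretches below are shown because they hold those matches in members whose levels are compared later; capitals mark the match and positions are counted from the RefSeq start. They run 5′ to 3′ on the strand of the gene. DDB2 lies on the plus strand, chr11:47214920-47214999, with a pair of exact decamers between positions 6 and 26. AEN lies on the plus strand, chr15:88621260-88621339, DCP1B on the minus strand, chr12:2004618-2004697, and PANK1 on the minus strand, chr10:89645243-89645322, each with a 20-base match holding 2 departures. GLS2 lies on the minus strand, chr12:56488113-56488132, and its 20-base match is 30 to 49 bases into the transcript. PLK2 lies on the minus strand, chr5:58460187-58460266, with 1 exact decamer, and is shown as the member with the largest fold change in ML1.
DDB2: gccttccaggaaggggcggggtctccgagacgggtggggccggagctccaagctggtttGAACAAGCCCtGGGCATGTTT
AEN: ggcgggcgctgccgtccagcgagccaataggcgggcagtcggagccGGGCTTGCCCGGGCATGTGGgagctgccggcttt
DCP1B: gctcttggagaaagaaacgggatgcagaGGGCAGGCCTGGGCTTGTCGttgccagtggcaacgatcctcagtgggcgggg
PANK1: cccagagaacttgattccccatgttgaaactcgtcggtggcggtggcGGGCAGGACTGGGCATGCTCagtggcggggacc
GLS2: AGGCTTGCTGGGGCATGCGC
PLK2: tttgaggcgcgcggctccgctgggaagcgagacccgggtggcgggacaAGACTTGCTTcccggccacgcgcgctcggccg
The 6 genes did not move alike: with prexasertib in ML1, DDB2, AEN, DCP1B and PLK2 rose, PANK1 fell and GLS2 passed no test.

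MDM2 and CDKN1A, well known p53 targets outside the members, are given first. Levels are given as CPM, the read count scaled to a fixed library total. MDM2, the ligase that degrades p53 and is itself switched on by it, had 2372, 842 and 1520 CPM in ML1 prexasertib libraries and 132, 133 and 132 CPM in ML1 diluent libraries. In bulk RNA, fewer cells of a type and less RNA per cell cannot be told apart, here and in every level below. The log2 fold change of MDM2 in ML1 was 3.58 ± 0.25 (standard error, SE; adjusted p = 3.5e-09) by edgeR's quasi-likelihood test, adjusted by the Benjamini-Hochberg method across the whole table. In U937 it had 61.5, 62.4 and 56.2 CPM with prexasertib and 45.9, 55.9 and 55.4 CPM with diluent, a log2 fold change of 0.20 ± 0.23 that did not pass the test (edgeR adjusted p = 0.54). CDKN1A, which encodes the CDK inhibitor p21, behaved otherwise and rose in both lines. It had 1898, 1843 and 1941 CPM in ML1 prexasertib libraries and 40.9, 78.1 and 65.0 CPM in ML1 diluent libraries (log2 fold change 4.95 ± 0.32, edgeR adjusted p = 1.6e-09). U937 libraries held 71.6, 116 and 64.0 CPM of CDKN1A with prexasertib and 7.42, 8.10 and 6.67 CPM with diluent (log2 fold change 3.50 ± 0.30, edgeR adjusted p = 1.5e-06).

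**Figure D1:**
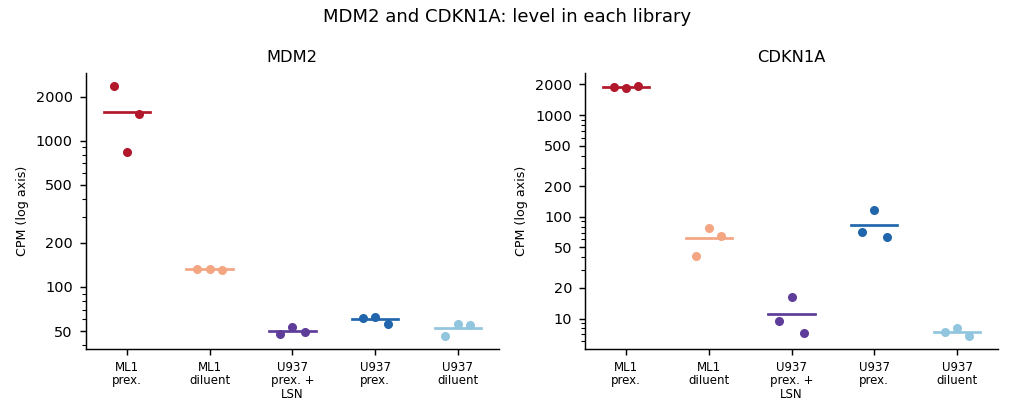
MDM2 and CDKN1A in each library, in CPM on log axes; each point is 1 library, lines are group means, and groups run from ML1 prexasertib and ML1 diluent to U937 prexasertib with LSN622666 (prex. + LSN), U937 prexasertib (prex.) and U937 diluent. CDKN1A lies between 1843 and 1941 CPM in ML1 prexasertib libraries, above every other library, and MDM2 is also highest in those 3 libraries.

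In ML1, prexasertib raised most of the p53 target genes: 25 of the 34 tested members rose, 1 fell and 8 passed no test. Among all 17243 tested genes, 25.3% rose and 23.5% fell in the same comparison, 48.8% in all, against 73.5% and 2.94% of the members. The median log2 fold change of the tested members was 1.57, beside 0.03 over all tested genes. Summed over the members, the level was 3389 to 4362 CPM in ML1 prexasertib libraries and 1099 to 1271 CPM in ML1 diluent libraries.

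**Figure D2:**
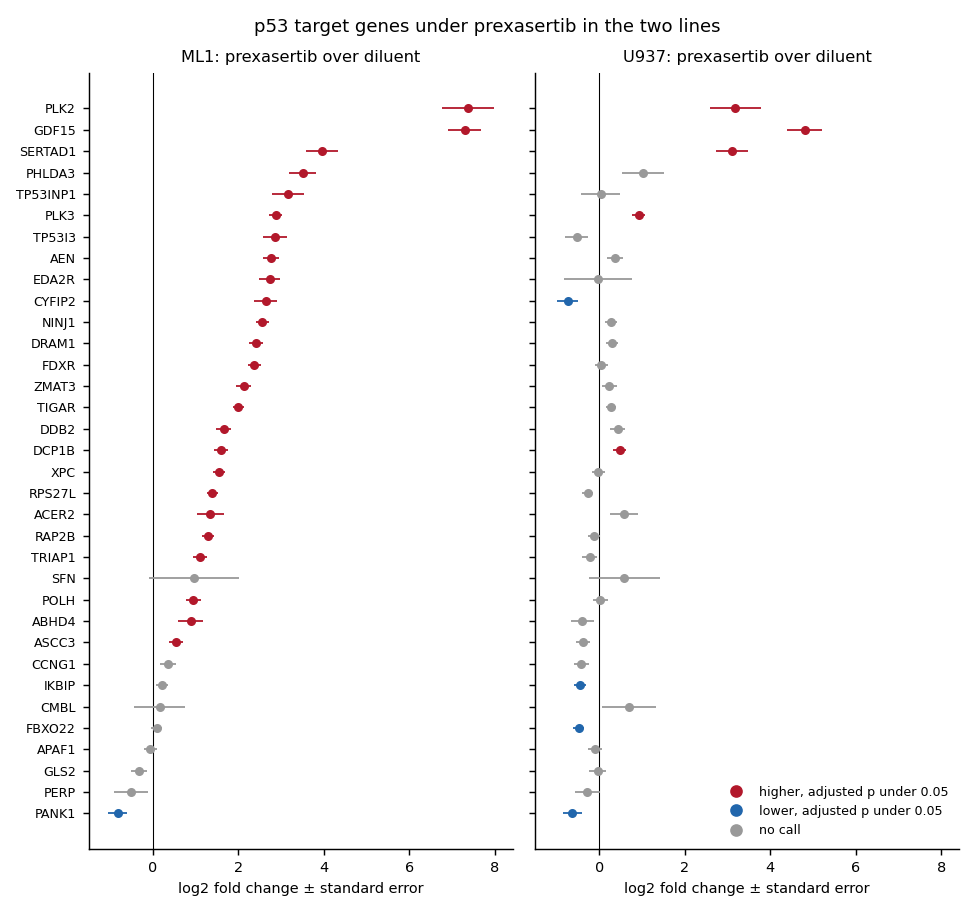
Log2 fold change of each tested p53 target gene with prexasertib over diluent, in ML1 (left) and U937 (right), with 3 libraries per group. Points are edgeR estimates, bars are standard errors from the fit of all 15 libraries, and colour gives the call at an adjusted p under 0.05. In ML1 25 members lie on the higher side with a call and PANK1 on the lower side, and in U937 5 are called higher and 4 lower.

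Of the 7 members that act in the cell cycle or growth signalling, 5 rose in ML1, and they included the 3 largest fold changes of all members. PLK2, a polo-like kinase of centriole duplication and the stress response, had 615, 614 and 557 CPM in prexasertib libraries and 3.96, 3.54 and 3.32 CPM in diluent libraries. Its log2 fold change was 7.37 ± 0.61 (edgeR adjusted p = 3.8e-07), a 165-fold difference. GDF15, a secreted stress cytokine of the TGF-beta family, had 41.0, 32.5 and 52.0 CPM in prexasertib libraries and 0.407, 0.178 and 0.231 CPM in diluent libraries. Its log2 fold change was 7.29 ± 0.39 (edgeR adjusted p = 1.2e-10). Neither gene overlapped between the groups.

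SERTAD1, a transcriptional coregulator that binds CDK4, had 97.2, 133 and 115 CPM in prexasertib libraries and 6.67, 8.88 and 6.66 CPM in diluent libraries (log2 fold change 3.95 ± 0.38, edgeR adjusted p = 5.3e-07). PLK3, another polo-like kinase, had 52.3, 44.3 and 53 CPM in prexasertib libraries and 6.81, 6.49 and 7.17 CPM in diluent libraries (log2 fold change 2.87 ± 0.15, edgeR adjusted p = 1.5e-10). Neither overlapped between the groups. RAP2B, a small GTPase, rose by 1.29 ± 0.14 on the log2 scale (edgeR adjusted p = 1.0e-06). CCNG1, the atypical cyclin G1, had a log2 fold change of 0.35 ± 0.18 that did not pass (edgeR adjusted p = 0.11), although its 3 prexasertib libraries, at 144 to 158 CPM, lay above the 3 diluent libraries at 98.8 to 136 CPM. SFN, an epithelial 14-3-3 protein, was near the limit of detection, at 0 to 0.177 CPM in prexasertib libraries and 0 to 0.0712 CPM in diluent libraries.

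Every one of the 5 members that repair DNA or help cells tolerate damage rose in ML1. XPC and DDB2, which recognise lesions for nucleotide excision repair, rose by log2 fold changes of 1.55 ± 0.15 (edgeR adjusted p = 1.5e-07) and 1.65 ± 0.18 (edgeR adjusted p = 8.3e-07). XPC held 176 to 305 CPM in prexasertib libraries and 80.7 to 89.4 CPM in diluent libraries. POLH, the translesion polymerase eta, rose by 0.94 ± 0.18 (edgeR adjusted p = 0.00025), and RPS27L, a ribosomal-like protein of the damage response, by 1.39 ± 0.12 (edgeR adjusted p = 5.0e-08). These 4 calls were of a similar, moderate size. ASCC3, a helicase of alkylation repair, changed least, by 0.54 ± 0.16 (edgeR adjusted p = 0.011). Its call was lost without ML1 diluent replicate 2 (edgeR adjusted p = 0.057) and without ML1 prexasertib replicate 1 (log2 fold change 0.29, edgeR adjusted p = 0.11).

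Among the 13 members assigned to apoptosis and survival, 9 rose in ML1, 3 passed no test and SPATA18 was not tested. PHLDA3, a repressor of AKT signalling, had 131, 104 and 152 CPM in prexasertib libraries and 10.6, 13.7 and 9.66 CPM in diluent libraries (log2 fold change 3.51 ± 0.32, edgeR adjusted p = 1.0e-07). TP53INP1, a nuclear cofactor of p53 and of autophagy, had 35.2, 21.5 and 24.0 CPM in prexasertib libraries and 2.80, 2.96 and 3.29 CPM in diluent libraries (log2 fold change 3.16 ± 0.37, edgeR adjusted p = 1.5e-06). No prexasertib library overlapped a diluent library in either gene. TP53I3, a quinone oxidoreductase linked to oxidative stress, had 13.7, 6.11 and 8.36 CPM in prexasertib libraries and 1.29, 1.32 and 1.28 CPM in diluent libraries (log2 fold change 2.86 ± 0.27, edgeR adjusted p = 1.3e-07). AEN, an apoptosis-enhancing nuclease, had 896, 593 and 976 CPM in prexasertib libraries and 137, 121 and 106 CPM in diluent libraries (log2 fold change 2.76 ± 0.19, edgeR adjusted p = 3.3e-09). Per kilobase of exon, AEN reached the highest level of any member in ML1 prexasertib libraries, at 137 CPM per kilobase, followed by PLK2 at 125 CPM per kilobase.

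EDA2R, a receptor of the TNF receptor family, had 57.5, 36.0 and 57.4 CPM in ML1 prexasertib libraries and 5.60, 8.11 and 8.97 CPM in ML1 diluent libraries (log2 fold change 2.73 ± 0.24, edgeR adjusted p = 6.0e-08). CYFIP2, an adaptor of the actin-regulating WAVE complex, had 38.6, 19.6 and 32.1 CPM in prexasertib libraries and 6.04, 4.52 and 3.92 CPM in diluent libraries (log2 fold change 2.64 ± 0.27, edgeR adjusted p = 2.6e-07). Prexasertib replicate 2 was the lowest of its group in both, yet above all diluent libraries. NINJ1, a membrane protein that ruptures the plasma membrane of dying cells, had 27.9, 34.1 and 24.9 CPM in prexasertib libraries and 5.62, 4.26 and 4.85 CPM in diluent libraries (log2 fold change 2.56 ± 0.15, edgeR adjusted p = 4.5e-10). DRAM1, a lysosomal activator of autophagy, had 75.0, 45.0 and 62.6 CPM in prexasertib libraries and 12.7, 11.3 and 10.4 CPM in diluent libraries (log2 fold change 2.41 ± 0.16, edgeR adjusted p = 1.5e-09). Neither overlapped between the groups. TRIAP1, a small mitochondrial inhibitor of apoptosis, rose by 1.10 ± 0.17 on the log2 scale (edgeR adjusted p = 4.1e-05).

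APAF1, the scaffold of the apoptosome, and PERP, a membrane protein of desmosomes, passed no test in ML1, with log2 fold changes of -0.06 ± 0.16 (edgeR adjusted p = 0.79) and -0.52 ± 0.40 (edgeR adjusted p = 0.29). IKBIP, whose gene lies head to head with APAF1 on chromosome 12, had 46.5, 41.3 and 47.7 CPM in prexasertib libraries and 34.3, 42.5 and 39.4 CPM in diluent libraries. The groups overlapped, and the log2 fold change of 0.22 ± 0.14 did not pass (edgeR adjusted p = 0.20). APAF1 spread over 118 to 164 CPM in prexasertib libraries and over 102 to 171 CPM in diluent libraries.

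Metabolic members were mixed: of 7, 4 rose in ML1, 1 fell and 2 passed no test. FDXR, ferredoxin reductase of the mitochondrial electron chain for steroid and iron-sulfur synthesis, rose by 2.38 ± 0.15 on the log2 scale (edgeR adjusted p = 9.1e-10), and TIGAR, which lowers glycolytic flux, by 1.99 ± 0.13 (edgeR adjusted p = 1.1e-09). ACER2, an alkaline ceramidase, rose by 1.34 ± 0.31 (edgeR adjusted p = 0.0018), with 4.01 to 8.28 CPM in prexasertib libraries and 2.35 to 2.68 CPM in diluent libraries. ABHD4, a lipid hydrolase, rose by 0.89 ± 0.29 (edgeR adjusted p = 0.019), a call lost without ML1 diluent replicate 1 (edgeR adjusted p = 0.093) or without ML1 prexasertib replicate 2 (edgeR adjusted p = 0.076). PANK1 was the member that fell. This pantothenate kinase of coenzyme A synthesis had 6.98, 11.3 and 12.2 CPM in prexasertib libraries and 14.3, 20.3 and 19.4 CPM in diluent libraries, without overlap (log2 fold change -0.83 ± 0.23, edgeR adjusted p = 0.0054). GLS2, the mitochondrial glutaminase, had a log2 fold change of -0.32 ± 0.19 (edgeR adjusted p = 0.17), and CMBL, a hydrolase, stayed at or under 0.238 CPM in all ML1 libraries. Of the exon bases of GLS2, 77.1% lie opposite the counted gene SPRYD4. The library kit does not mark strand, so reads there cannot be told apart. Of those of TIGAR, 42.6% overlap AC008012.1, which is not among the counted symbols and lies on the same strand, so strand would not separate them. Smaller exon overlaps with another gene were found for XPC (23.8%), PHLDA3 (19.1%), FBXO22 (16.2%) and APAF1 (9.48%). The other gene is among the counted symbols for FBXO22 and APAF1 and not for XPC and PHLDA3.

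Of the 3 members in RNA and protein turnover, 2 rose in ML1. ZMAT3, an RNA-binding zinc finger protein that regulates splicing, rose by 2.12 ± 0.17 on the log2 scale (edgeR adjusted p = 1.9e-08). DCP1B, a cofactor of mRNA decapping, had 62.8, 50.3 and 76.5 CPM in prexasertib libraries and 18.6, 23.1 and 20.8 CPM in diluent libraries (log2 fold change 1.60 ± 0.16, edgeR adjusted p = 2.4e-07). Its groups did not overlap. FBXO22, a ubiquitin ligase subunit, had 62.0, 52.4 and 65.1 CPM in prexasertib libraries and 53.6, 56.6 and 58.7 CPM in diluent libraries, overlapping groups with a log2 fold change of 0.09 ± 0.12 (edgeR adjusted p = 0.58).

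**Figure D3:**
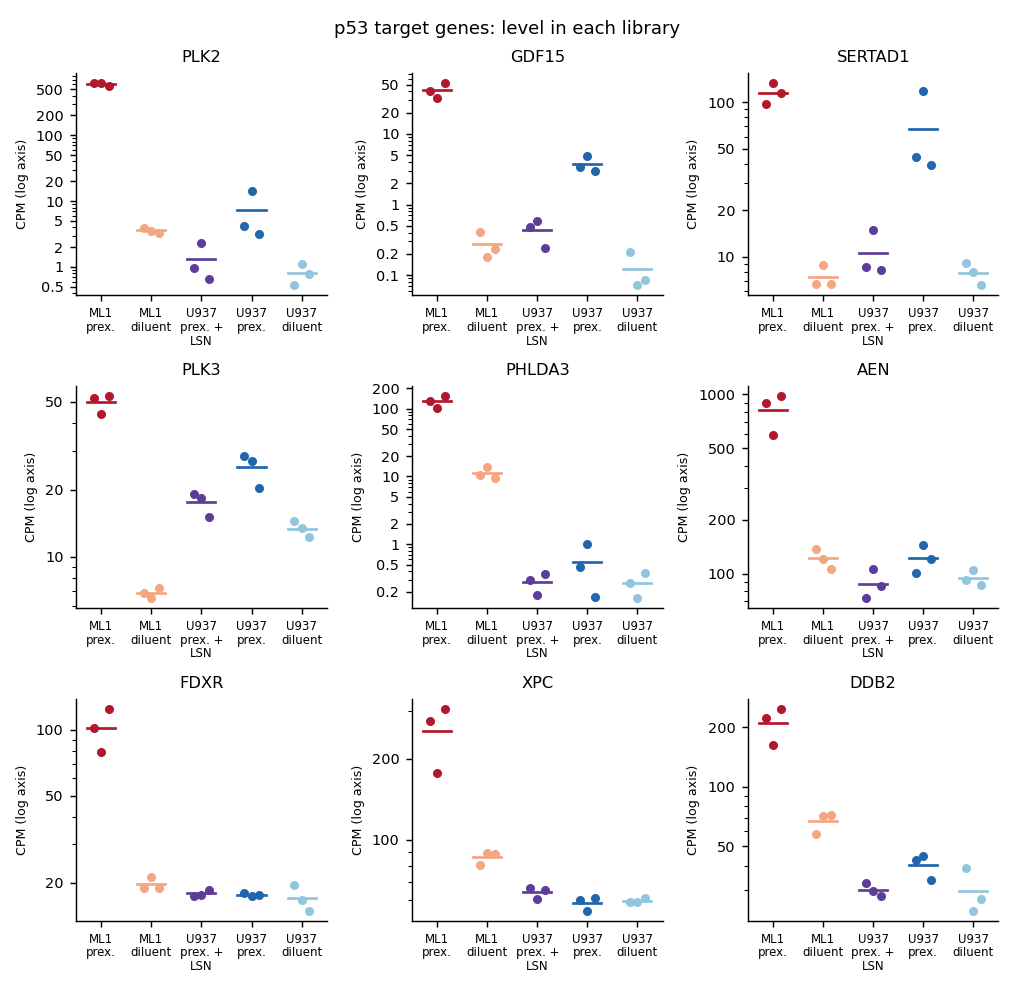
CPM of 9 p53 target genes in each library, on log axes; each point is 1 library, lines are group means, and groups are ordered and shortened as in the plot of MDM2 and CDKN1A. In ML1 the prexasertib libraries lie above the diluent libraries in every panel, and in U937 the prexasertib libraries lie apart from the diluent libraries for GDF15, PLK2, SERTAD1 and PLK3.

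Myeloid markers moved in the same ML1 libraries. Of 15 markers, 12 rose and 1 fell with prexasertib, and their summed level was 5440 to 7202 CPM in prexasertib libraries and 2175 to 2455 CPM in diluent libraries. The shares were 80% and 6.67%, beside 25.3% and 23.5% of all tested genes. CD14, FCER1G and LYZ, genes of monocytes and macrophages, were among those that rose, and LYZ held 3361, 4456 and 3065 CPM in prexasertib libraries and 641, 499 and 401 CPM in diluent libraries. MPO, the myeloperoxidase of granulocyte precursors, fell (log2 fold change -0.90 ± 0.24, edgeR adjusted p = 0.0041). Of 15 markers of other cell types 7 were tested. In ML1 2 rose, PECAM1 and COL1A1, and 2 fell, 28.6% of those tested each, close to the shares of all genes. The summed level of the 15 was 232 to 311 CPM in prexasertib libraries and 60.9 to 70.7 CPM in diluent libraries. Most of it was PECAM1, which myeloid cells also express. The part of these changes in the p53 target result was not tested.

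In U937, 5 of the 34 tested members rose with prexasertib, 4 fell and 25 passed no test. Of all tested genes 18.3% rose and 12.8% fell, 31.1% in all, beside 14.7% and 11.8% of the members, so the members' shares lay close to the background. Their median log2 fold change was 0.03, and that of all tested genes was 0.00. The summed level was 1146 to 1174 CPM in U937 prexasertib libraries and 1168 to 1180 CPM in U937 diluent libraries. In edgeR's test none of the 5 DNA repair members, the 13 apoptosis members or the 7 metabolic members rose; 1 of the first group (DDB2), 0 of the second and 1 of the last (TIGAR) were higher at an unadjusted p under 0.05, and DESeq2 called 0 in each. Some of them were called higher under other settings of edgeR's test: TIGAR with upper-quartile factors (adjusted p = 0.045) or the stricter low-count filter (0.031), DDB2 without U937 diluent replicate 1 (0.013) or prexasertib replicate 3 (0.038), and PHLDA3 (0.009) and ACER2 (0.043) without prexasertib replicate 3.

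Of the 5 members that rose in U937, 4 were among the 7 assigned to cell cycle and growth, beside 18.3% of all tested genes. The members were chosen with earlier results known and the group is small, so no pattern of function is read from this count. GDF15 had 3.37, 4.88 and 2.94 CPM in U937 prexasertib libraries and 0.215, 0.0720 and 0.0855 CPM in U937 diluent libraries (log2 fold change 4.81 ± 0.41, edgeR adjusted p = 1.1e-06). PLK2 had 4.21, 14.3 and 3.19 CPM in prexasertib libraries and 0.529, 1.12 and 0.770 CPM in diluent libraries (log2 fold change 3.19 ± 0.59, edgeR adjusted p = 0.0018). SERTAD1 had 44.3, 119 and 39.5 CPM in prexasertib libraries and 9.10, 7.94 and 6.54 CPM in diluent libraries (log2 fold change 3.10 ± 0.37, edgeR adjusted p = 3.7e-05). In all 3 genes prexasertib replicate 2 was the highest library and no prexasertib library overlapped a diluent library. Without that replicate the log2 fold change was 2.19 for PLK2 and 2.38 for SERTAD1, and without U937 diluent replicate 1 it was 5.51 for GDF15.

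PLK3 had 28.4, 27.1 and 20.4 CPM in U937 prexasertib libraries and 14.4, 13.4 and 12.2 CPM in diluent libraries, without overlap (log2 fold change 0.92 ± 0.15, edgeR adjusted p = 0.00025). DCP1B had 15.1, 20.4 and 14.5 CPM in prexasertib libraries and 12.2, 12 and 11.8 CPM in diluent libraries (log2 fold change 0.48 ± 0.16, edgeR adjusted p = 0.031). The DCP1B groups did not overlap either, but its call was lost without any 1 of the 3 diluent libraries (edgeR adjusted p of 0.066, 0.087 and 0.10) and without prexasertib replicate 2 (edgeR adjusted p = 0.22). PHLDA3, TP53INP1 and EDA2R, which stood high in ML1, were at or under 1.02 CPM in all U937 libraries.

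Of the 4 members that fell in U937, CYFIP2 was called in opposite directions in the lines. It had 49.2, 23.5 and 38.6 CPM in U937 prexasertib libraries and 65.0, 58.5 and 61.7 CPM in U937 diluent libraries (log2 fold change -0.73 ± 0.24, edgeR adjusted p = 0.031). Prexasertib replicate 2 was the lowest; without it the call was lost (edgeR adjusted p = 0.14), as it was without diluent replicate 1 (0.062) or 3 (0.054). FBXO22 had 33.9, 28.6 and 39.2 CPM in prexasertib libraries and 45.4, 47.6 and 49.3 CPM in diluent libraries (log2 fold change -0.48 ± 0.12, edgeR adjusted p = 0.0074). IKBIP had 20.1, 16.8 and 23.6 CPM in prexasertib libraries and 28.2, 27.9 and 26.5 CPM in diluent libraries (log2 fold change -0.45 ± 0.14, edgeR adjusted p = 0.023, and 0.088 without prexasertib replicate 2). In these 3 genes every prexasertib library lay below every diluent library. PANK1 had 9.77, 11.2 and 14.2 CPM in prexasertib libraries and 13.9, 21.8 and 18.8 CPM in diluent libraries, with an overlap of 1 library (log2 fold change -0.63 ± 0.22, edgeR adjusted p = 0.041). Its call was lost without diluent replicate 2 (0.13) or 3 (0.078) and without prexasertib replicate 1 (0.11) or 2 (0.11).

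Over both lines, 5 members rose in each, namely GDF15, PLK2, PLK3, SERTAD1 and DCP1B, and 1, PANK1, fell in each. A further 19 rose in ML1 with no call in U937, CYFIP2 rose in ML1 and fell in U937, FBXO22 and IKBIP fell in U937 with no call in ML1, and 6 passed no test in either line. The difference of the 2 prexasertib effects, ML1 minus U937, was tested for each gene as an interaction. It was above 0 with a call in 26 of 34 members (76.5%) and below 0 with a call in none, beside 12.3% and 12.4% of all tested genes. At an unadjusted p under 0.05 edgeR's test found 26 members above 0 and 0 below, and DESeq2 also called 0 below. The median difference of the members was 1.37 on the log2 scale, and that of all tested genes was -0.03.

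The largest interaction was that of PLK2, with a log2 difference of 4.18 ± 0.80 (edgeR adjusted p = 0.0018), and it was 5.18 without U937 prexasertib replicate 2. TP53I3, CYFIP2 and TP53INP1 followed, with log2 differences of 3.38 ± 0.38 (edgeR adjusted p = 3.8e-06), 3.37 ± 0.36 (2.2e-06) and 3.12 ± 0.58 (0.00062). The value of TP53INP1 was 2.25 without U937 diluent replicate 1, and that of PHLDA3, 2.48 ± 0.61, was 3.29 without U937 prexasertib replicate 2. FDXR (2.32 ± 0.20), NINJ1 (2.29 ± 0.20), DRAM1 (2.11 ± 0.21) and TIGAR (1.71 ± 0.18) also differed with edgeR adjusted p-values of 2.7e-07, 3.1e-07, 1.3e-06 and 1.5e-06. All 5 DNA repair members differed, by 0.92 ± 0.23 for ASCC3 to 1.66 ± 0.17 for RPS27L. For SERTAD1 the difference of 0.85 ± 0.49 did not pass (edgeR adjusted p = 0.23), although it did without U937 prexasertib replicate 2 (edgeR adjusted p = 0.001).

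Several interactions rested on single libraries. GDF15, at 2.48 ± 0.63 (edgeR adjusted p = 0.0071), was 1.77 without U937 diluent replicate 1 and no longer called (edgeR adjusted p = 0.15). EDA2R, at 2.75 ± 0.92 (edgeR adjusted p = 0.037), had at most 5 counts in any U937 library and lost its call without U937 diluent replicate 1 (0.056) or 2 (0.45, log2 difference 1.62) and without any 1 of the U937 prexasertib libraries (0.064, 0.053 and 0.053). The interactions of CCNG1, FBXO22, ABHD4 and IKBIP each lost significance without at least 1 library, as given with the alternatives in the closing section.

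**Figure D4:**
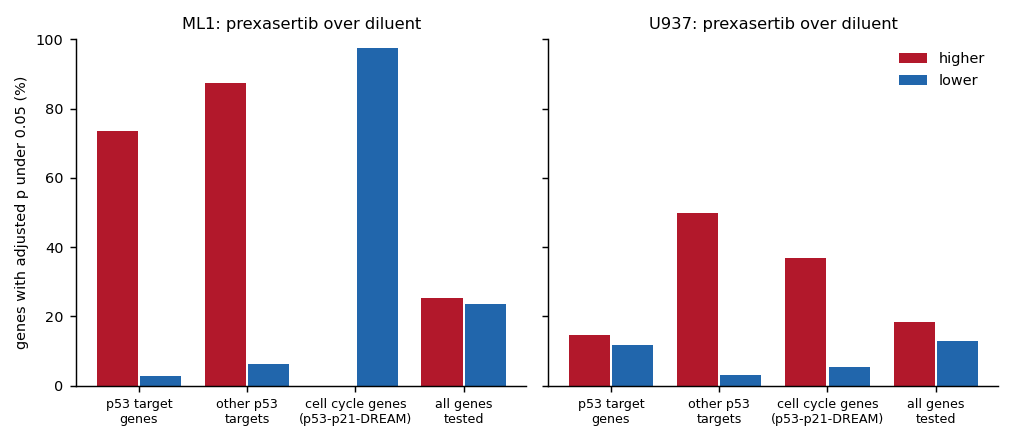
Percent of genes called higher or lower with prexasertib over diluent at an adjusted p under 0.05, in ML1 (left) and U937 (right), for the p53 target genes, a list of other p53 targets, cell cycle genes repressed through p53, p21 and DREAM, and all tested genes. In ML1 73.5% of the p53 target genes are called higher beside 25.3% of all genes, and in U937 14.7% beside 18.3%.

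When LSN622666 was added to prexasertib in U937, 8 of the 34 tested members were lower than with prexasertib alone, 1 was higher and 25 passed no test. The shares were 23.5% lower and 2.94% higher, 26.5% in all. Of all tested genes 17.1% were lower and 11.9% higher, 29% in all. The members' median log2 fold change was -0.12, and that of all tested genes was 0.01. This comparison shares the prexasertib libraries with that of prexasertib over diluent, so a high prexasertib library moves both, and the values are set side by side without a test of their relation.

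GDF15 had 0.478, 0.588 and 0.243 CPM with the combination, against 3.37, 4.88 and 2.94 CPM with prexasertib alone and 0.215, 0.0720 and 0.0855 CPM with diluent. The combination lay below prexasertib alone without overlap (log2 fold change -3.10 ± 0.34, edgeR adjusted p = 1.4e-05). SERTAD1 had 8.60, 14.9 and 8.20 CPM with the combination, against 44.3, 119 and 39.5 CPM with prexasertib (log2 fold change -2.68 ± 0.36, edgeR adjusted p = 0.00012; -1.98 without prexasertib replicate 2). PLK2 had 0.956, 2.33 and 0.668 CPM with the combination, against 4.21, 14.3 and 3.19 CPM with prexasertib (log2 fold change -2.46 ± 0.54, edgeR adjusted p = 0.0046). Its value was -1.49 without prexasertib replicate 2 and -3.16 without combination replicate 2. In each of the 3 genes, no combination library reached a prexasertib library.

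NINJ1 was also lower with the combination, at 11.4, 13.1 and 13.3 CPM, against 21.1, 22.6 and 22.6 CPM with prexasertib (log2 fold change -0.81 ± 0.14, edgeR adjusted p = 0.00059). DRAM1 had 28.7, 31.7 and 33.3 CPM with the combination, against 42.1, 46.1 and 48.6 CPM with prexasertib (log2 fold change -0.55 ± 0.15, edgeR adjusted p = 0.012, and 0.051 without combination replicate 1). Neither of these death and autophagy genes had been called between prexasertib and diluent in U937. DCP1B had 11.1, 11.4 and 11.1 CPM with the combination (log2 fold change over prexasertib -0.57 ± 0.16, edgeR adjusted p = 0.012, and 0.083 without prexasertib replicate 2). PLK3 had 19.3, 18.5 and 15.2 CPM with the combination (log2 fold change over prexasertib -0.52 ± 0.14, edgeR adjusted p = 0.012). ACER2 had 1.58, 1.01 and 1.04 CPM with the combination, against 2.58, 3.32 and 1.43 CPM with prexasertib (log2 fold change -1.01 ± 0.32, edgeR adjusted p = 0.026).

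ACER2 overlapped between the groups in 1 library each, and the calls of PLK3 and ACER2 depended on single libraries. That of PLK3 was lost without prexasertib replicate 1 (edgeR adjusted p = 0.056) or 2 (0.052) or combination replicate 3 (0.074). That of ACER2 was lost without prexasertib replicate 1 (0.056) or 2 (0.16) or combination replicate 2 (0.082) or 3 (0.097). CYFIP2 was the 1 member higher with the combination than with prexasertib alone, at 72.3, 51.7 and 62.1 CPM, against 49.2, 23.5 and 38.6 CPM (log2 fold change 0.74 ± 0.24, edgeR adjusted p = 0.031). Its call was lost without prexasertib replicate 2 (0.14) or 3 (0.055) or combination replicate 1 (0.11) or 3 (0.071). With the replicate number as a block, which pairs the samples in this comparison, ABHD4 and PANK1 were called as well, both higher with the combination (edgeR adjusted p of 0.029 and 0.034), so that 3 members were higher and 8 lower.

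**Figure D5:**
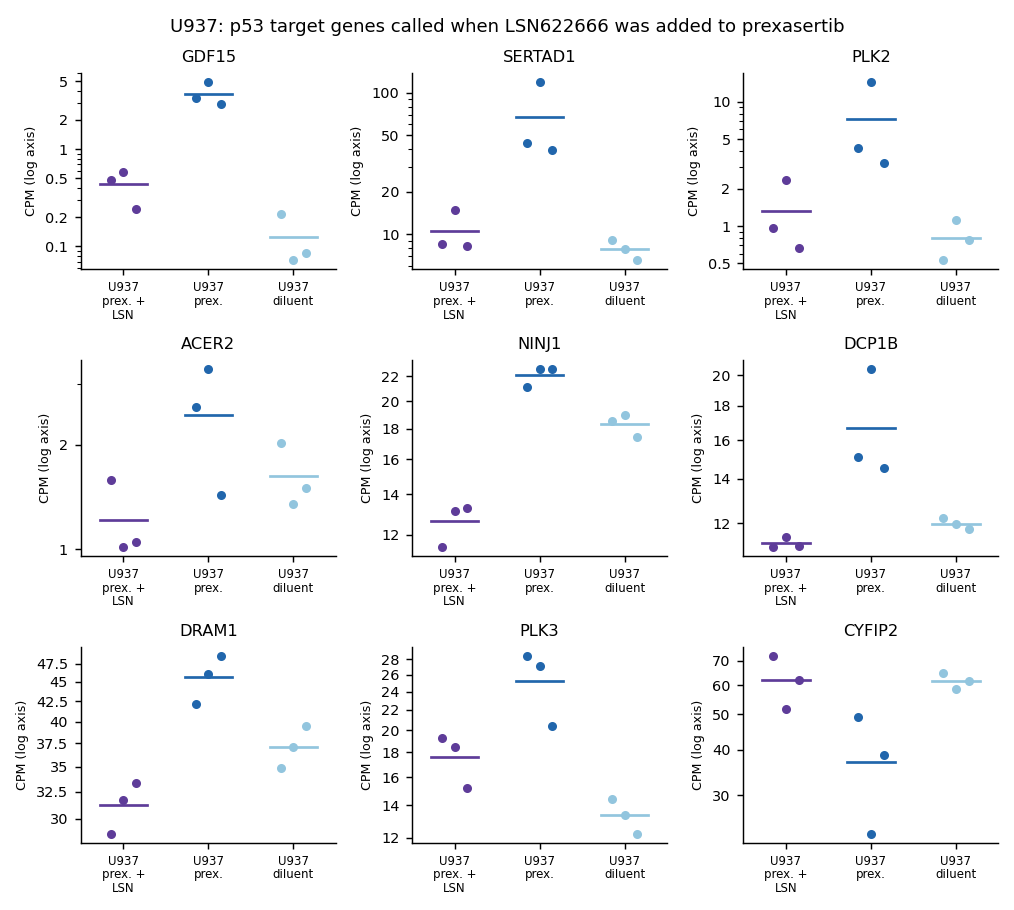
CPM in each U937 library, on log axes, of the 9 p53 target genes called between the combination and prexasertib alone; each point is 1 library, lines are group means, prex. + LSN is 10 nM prexasertib with 350 nM LSN622666 and prex. is 10 nM prexasertib alone. GDF15, SERTAD1 and PLK2 are highest in the prexasertib libraries, and CYFIP2 is lowest there.

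Between the combination and diluent in U937, 2 of the 34 members were called, 1 in each direction, beside 6.88% of all tested genes higher and 4.11% lower (11% in all). GDF15 remained above diluent (log2 fold change 1.70 ± 0.47, edgeR adjusted p = 0.029), with no overlap. That call was lost without U937 diluent replicate 2 (0.13) or 3 (0.10) or combination replicate 1 (0.10) or 2 (0.093), and the value was 2.42 without diluent replicate 1. NINJ1, at 11.4, 13.1 and 13.3 CPM with the combination, lay below its 18.5, 18.9 and 17.4 CPM with diluent (log2 fold change -0.54 ± 0.14, edgeR adjusted p = 0.024), a call lost without diluent replicate 2 (0.074) or combination replicate 1 (0.10). SERTAD1, PLK2 and PLK3 passed no test against diluent, with log2 fold changes of 0.43 ± 0.35, 0.72 ± 0.63 and 0.40 ± 0.14 (edgeR adjusted p of 0.45, 0.49 and 0.080).

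With diluent alone 11 of 34 members were higher in ML1 than in U937, 8 were lower and 15 passed no test, beside 29.4% of all tested genes higher and 32% lower (61.4% in all). The members thus differed between the lines no more often than tested genes at large. EDA2R and PHLDA3 differed most, by log2 differences of 7.47 ± 0.41 (edgeR adjusted p = 2.6e-11) and 5.39 ± 0.41 (edgeR adjusted p = 4.9e-09), and both were nearly absent in U937. TP53INP1, PLK2, ZMAT3, APAF1, DDB2, DCP1B, RPS27L, XPC and IKBIP were also higher in ML1, by 2.83 down to 0.49 on the log2 scale. CYFIP2, ABHD4 and PERP were lower in ML1, by log2 differences of -3.68 ± 0.28 (edgeR adjusted p = 2.2e-09), -3.37 ± 0.31 (edgeR adjusted p = 3.5e-08) and -3.30 ± 0.34 (edgeR adjusted p = 1.3e-07). NINJ1, DRAM1, PLK3, CCNG1 and TIGAR were lower as well, by -1.90 up to -0.43. Without U937 diluent replicate 1 the value of TP53INP1 was 3.73, and without replicate 2 that of EDA2R was 8.64. Some members were thus low in U937 with diluent and stayed low with prexasertib, while CYFIP2, ABHD4, NINJ1 and DRAM1 were higher in U937 with diluent.

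Other genes of the pathway were read from lists drawn up, like the members, with earlier results of these data known. The directions of the lists and of the members are thus no independent evidence. Of 32 further p53 targets, 28 rose and 2 fell in ML1 with a median log2 fold change of 2.00, and 16 rose and 1 fell in U937 with a median of 0.62. In ML1 these were 87.5% and 6.25% of the list, beside 25.3% and 23.5% of all tested genes. In U937 they were 50% and 3.12%, beside 18.3% and 12.8% of all tested genes and 14.7% and 11.8% of the members. GADD45A, a growth arrest gene, had 336, 247 and 272 CPM in ML1 prexasertib libraries and 5.79, 6.09 and 7.44 CPM in ML1 diluent libraries (log2 fold change 5.47 ± 0.37, edgeR adjusted p = 8.5e-09). PMAIP1, which encodes the BH3-only death protein NOXA, rose in ML1 by 5.31 ± 0.38 (edgeR adjusted p = 1.8e-08) and in U937 by 2.57 ± 0.34 (edgeR adjusted p = 8.1e-05; 1.94 without U937 prexasertib replicate 2). BTG2, an antiproliferative gene, rose by 4.49 ± 0.21 in ML1 (edgeR adjusted p = 3.2e-11) and by 2.39 ± 0.19 in U937 (edgeR adjusted p = 6.4e-07). TNFRSF10D, a decoy receptor for TRAIL, rose by 1.95 ± 0.22 in U937 (edgeR adjusted p = 1.2e-05). It was higher with prexasertib in ML1 too, at a mean of 301.9 CPM against 34.55 CPM with diluent. TNFAIP8 fell in both lines, with log2 fold changes of -1.14 ± 0.16 in ML1 (edgeR adjusted p = 1.2e-05) and -0.69 ± 0.16 in U937 (edgeR adjusted p = 0.0039). The interaction was above 0 with a call for 23 of these 32 genes (71.9%, beside 12.3% of all tested genes). With the combination, 14 were lower than with prexasertib alone and 4 higher, with a median log2 fold change of -0.65. These were 43.8% and 12.5%, beside 17.1% and 11.9% of all tested genes.

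Of 23 regulators of p53 found in the table, 9 rose and 4 fell in ML1, and 9 rose and 2 fell in U937. In ML1 these were 39.1% and 17.4%, beside 25.3% and 23.5% of all tested genes. In U937 they were 39.1% and 8.7%, beside 18.3% and 12.8%. PPP1R13B, which encodes the p53 cofactor ASPP1, and CDKN2A, the source of ARF, rose in ML1 by 2.80 ± 0.34 (edgeR adjusted p = 2.2e-06) and 2.10 ± 0.17 (edgeR adjusted p = 1.5e-08). Both stayed low in ML1, at means of 0.221 and 0.6136 CPM with diluent and 1.547 and 2.645 CPM with prexasertib. In U937 with diluent their means were 9.74 and 72.17 CPM. TP73, a p53 relative, fell in ML1 with a log2 fold change of -2.52 ± 0.28 (edgeR adjusted p = 7.2e-07), and CHEK1, the gene of the kinase that prexasertib inhibits, with one of -1.18 ± 0.14 (edgeR adjusted p = 1.6e-06). PPM1D, a phosphatase that acts on p53, rose in U937 by 0.98 ± 0.19 (edgeR adjusted p = 0.0013). It was higher with prexasertib in ML1 too, at a mean of 111.8 CPM against 34.71 CPM with diluent. TP63, the other p53 relative, was rare: it had 49, 76 and 66 counts in ML1 prexasertib libraries and 0, 0 and 2 counts in ML1 diluent libraries. In U937 it had 45, 199 and 30 counts with prexasertib and 0 in each diluent library, which is at least 78.6-fold higher against a floor of 3 counts over the group; without prexasertib replicate 2, which held 199 of those counts, it is at least 32-fold higher. In U937 the count of regulators that rose was 5 without prexasertib replicate 2, and that of those that fell was 0 there, with upper-quartile factors, with the stricter low-count filter and without diluent replicate 2 or 3.

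Cell cycle genes repressed through p53, p21 and the DREAM complex moved differently in the lines. Of 38 such genes, 37 fell in ML1 with prexasertib, with a median log2 fold change of -1.47, and the remaining one was also below 0 without a call. The 37 were 97.4% of the list, beside 23.5% of all tested genes. CENPF, CCNA2, MCM6 and BUB1 fell most, and CCNA2, the S and G2 cyclin, had 40.2, 41.8 and 47.3 CPM in ML1 prexasertib libraries and 216, 229 and 225 CPM in ML1 diluent libraries (log2 fold change -2.37 ± 0.13, edgeR adjusted p = 1.4e-10). In U937, 14 rose and 2 fell, with a median of 0.33. These were 36.8% and 5.26% of the list, beside 18.3% and 12.8% of all tested genes. AURKA, a mitotic kinase, had 350, 423 and 258 CPM with prexasertib and 129, 139 and 131 CPM with diluent (log2 fold change 1.37 ± 0.18, edgeR adjusted p = 5.8e-05). That count of 14 was 7 without U937 prexasertib replicate 1, 9 without replicate 2 and 8 without diluent replicate 2 or 3, and it was 22 with the stricter low-count filter, where none fell. The interaction was below 0 with a call for 37 of the 38 genes (97.4%, beside 12.4% of all tested genes). With the combination, 29 were lower than with prexasertib alone (76.3%, beside 17.1% of all tested genes).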

How the data were processed

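Whole-number, unnormalized counts by gene symbol for 15 libraries were deposited by the authors. The build was hg38 and the tools were featureCounts 1.4.6 (Subread), Bowtie2 2.2.6 and TopHat2 2.0.14, per the submitters' processing notes; annotation and strand setting: not given in the sources used here. The kit, TruSeq v2 per the labels' protocols, keeps no strand information, so reads of overlapping genes cannot be told apart. Groups and replicate numbers come from the titles; 0 columns were left unmapped.

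Tests used edgeR 4.0.16 in R 4.3.3: filterByExpr (17243 genes kept), TMM scaling, 1 robust quasi-likelihood fit of all 15 libraries with a mean per group (10 residual degrees of freedom), and Benjamini-Hochberg adjustment over all tested genes, with calls at an adjusted p under 0.05. CPM values use the TMM-scaled library totals. Errors beside fold changes are standard errors from the same fit, taken as the absolute log2 fold change over the square root of the quasi-likelihood F statistic. The procedure was tested on simulated data. Counts carry no molecular identifiers, so the floor of 3 counts covers counting error only.

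The 35 members and all gene lists were chosen with earlier results of these data known. Values per library are given for members called with prexasertib in either line, up to the 12 largest changes per line, and for any called in opposite directions. From the lists, MDM2, CDKN1A and up to 4 genes per direction with the largest called change per line may be named; some of the genes that this rule picks are not reported here. The symbol COP1, on the regulator list, was not matched.

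Replicate numbers were checked for pairing by the correlation of same-numbered samples' deviations from their group means. All 3 were above 0.1 between the combination and prexasertib alone (0.409, 0.37 and 0.384), so the numbers were taken to pair those samples. Every other comparison checked had at least 1 below 0.1. In U937 the values were 0.317, 0.102 and 0.0621 for prexasertib and diluent. For the combination and diluent they were 0.386, 0.268 and 0.0477, so part of the same-numbered samples varied together there too. The main fit held no replicate term for any comparison.

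Alternatives were DESeq2 1.42.0, RLE and upper-quartile factors, no filter, a filter of 5 CPM in 3 libraries, the compared groups only, the replicate block and leaving out each library. Coordinates and exon overlaps of the members come from GENCODE v29, which matched all 35, and promoter sequences from RefSeq on GRCh38.p14.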

Additional observations from a re-analysis of the deposited data

Results flagged for a closer look

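For 26 p53 target genes, the effect of prexasertib differed between the lines when the difference itself was tested (interaction in edgeR's quasi-likelihood fit, adjusted over all tested genes), and each is listed for that reason with its log2 difference, ML1 minus U937. Every one of the 26 was above 0.

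Among the cell cycle and growth genes the difference was 4.18 for PLK2, 2.48 for GDF15, 1.95 for PLK3, 1.42 for RAP2B and 0.77 for CCNG1. The DNA repair genes differed by 1.66 for RPS27L, 1.57 for XPC, 1.22 for DDB2, 0.92 for ASCC3 and 0.92 for POLH. In the apoptosis and survival genes it was 3.38 for TP53I3, 3.37 for CYFIP2, 3.12 for TP53INP1, 2.75 for EDA2R, 2.48 for PHLDA3, 2.39 for AEN, 2.29 for NINJ1, 2.11 for DRAM1, 1.32 for TRIAP1 and 0.67 for IKBIP. Metabolic genes differed by 2.32 for FDXR, 1.71 for TIGAR and 1.28 for ABHD4. The RNA and protein turnover genes differed by 1.89 for ZMAT3, 1.12 for DCP1B and 0.57 for FBXO22. For CYFIP2 the sign itself differed, with a call in each line. For FBXO22 and IKBIP the difference came with a fall in U937 and no call in ML1, and for CCNG1 with no call in either line. CCNG1 was called in ML1 with the compared groups only (edgeR adjusted p = 0.025), and in U937 with the replicate block (0.035) and without diluent replicate 2 (0.038) or prexasertib replicate 1 (0.018).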

How the results depend on the processing

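No called member changed its direction under any alternative tried, and over all alternatives 1265 of the values of called members kept their side of the threshold and 71 lost it, while 1452 values of uncalled members stayed uncalled and 37 gained a call. In every alternative that tested the gene, 24 of the 26 calls in ML1, 5 of the 9 in U937 and 20 of the 26 interactions were kept. So were 4 of the 9 between the combination and prexasertib, 0 of the 2 between the combination and diluent and 19 of the 19 between the lines with diluent. A gene left untested by an alternative was not counted as lost there. The filter of 5 CPM in 3 libraries left out PERP and ACER2, for example. The cause was not tested for the changes below.

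With prexasertib over diluent in U937, the stricter filter and the fit of the compared groups only each left 2 members lower instead of 4, and the fit of the compared groups only called 3470 genes instead of 5369. There IKBIP (adjusted p = 0.066), DCP1B (0.062) and PANK1 (0.055) lost their calls with the compared groups only, PANK1 (0.065) and CYFIP2 (0.061) with the stricter filter, and CYFIP2 with upper-quartile factors (0.053) or no filter (0.052). Between the combination and prexasertib, the members higher numbered 2 with DESeq2, upper-quartile factors or the stricter filter and 0 with no filter or the compared groups only, instead of 1; PLK3 (0.059), ACER2 (0.072) and CYFIP2 (0.051) lost their calls with the compared groups only, and CYFIP2 (0.057) with no filter. Between the combination and diluent, DESeq2 called 3031 genes instead of 1895; the members higher were 2 with upper-quartile factors or the stricter filter and 0 with the compared groups only, and those lower were 2 with DESeq2 and 0 with upper-quartile factors or the stricter filter, instead of 1 each, GDF15 being lost with the compared groups only (0.067) and NINJ1 with upper-quartile factors (0.060) or the stricter filter (0.054).

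The replicate block gave 3 members higher between the combination and prexasertib, and between the combination and diluent 2988 genes called, 2 members higher and 2 lower, PLK3 (adjusted p = 0.048) and RPS27L (adjusted p = 0.037) being added. In comparisons not taken as paired, it called the interaction of SERTAD1 (adjusted p = 0.028), CCNG1 lower in U937 (0.035) and FBXO22 higher between the lines with diluent (0.046).

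Leaving out 1 library gave 2684 to 6292 genes called in U937 with prexasertib, 4 to 8 members higher and 1 to 5 lower. In ML1 it gave 7306 to 7937 genes, 24 to 25 members higher and 1 lower, and for the interaction 3511 to 4185 genes and 22 to 26 members. Between the combination and prexasertib it gave 2899 to 5107 genes, 0 to 2 members higher and 5 to 10 lower; against diluent, 604 to 1775 genes, 0 to 1 higher and 0 to 1 lower. Between the lines with diluent it gave 9714 to 10022 genes, 11 to 12 members higher and 8 lower.

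The interaction of CCNG1 lost its call under 6 alternatives (adjusted p of 0.052 to 0.089), that of FBXO22 without ML1 diluent replicate 1 or prexasertib replicate 3 (0.052 and 0.059), that of IKBIP without ML1 diluent replicate 1 (0.053), and that of ABHD4 with no filter (0.067) and without any 1 of 6 libraries (0.051 to 0.075). Upper-quartile factors moved the median of all genes between the combination and diluent by 0.106 on the log2 scale.

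SFN and CMBL in both lines and EDA2R in U937 rested on few counts, which limits the precision of their values. The same holds for GDF15 with diluent, at 23 counts over the U937 group and 52 over the ML1 group. PHLDA3 and TP53INP1 had 46 and 76 counts over the U937 diluent group, and PERP had 42 over the ML1 diluent group.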
